A study of Homo sapiens with 9 samples.

Results

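The 10 genes described here encode the enzymes that hydroxylate and crosslink collagen and the chaperone that folds it. They are P4HA1, P4HA2 and P4HB, which make up prolyl 4-hydroxylase, the prolyl 3-hydroxylase P3H1, the lysyl hydroxylases PLOD1, PLOD2 and PLOD3, the collagen chaperone SERPINH1 (also called HSP47), and the lysyl oxidases LOX and LOXL2. They were taken by name from 18970 gene symbols in 2 count tables, and all 10 were found in both. After 24h of SOX9 depletion, PLOD3 passed the test as lower in total and in newly made RNA. SERPINH1, LOX and PLOD2 passed as higher in total RNA only, and not in newly made RNA. Of 11 alternative fits in total RNA, 10 kept the result for PLOD3, 8 for SERPINH1 and 6 each for LOX and PLOD2. At 3h none of the 10 passed the test in total or newly made RNA on its own. LOXL2 passed at 3h in the test of newly made against older RNA, which 1 of 6 alternative fits kept.

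Collagen chains are modified in the endoplasmic reticulum before they leave the cell. Prolyl 4-hydroxylase makes the hydroxyprolines that keep the triple helix stable at body temperature, lysyl hydroxylases make the hydroxylysines that carry sugars and take part in crosslinks, and SERPINH1 binds the folded helix on its way to the Golgi. Outside the cell, lysyl oxidases oxidize lysine and hydroxylysine side chains, which then join neighbouring collagen molecules. Cranial neural crest cells (CNCCs) are the embryonic cells that form most of the facial skeleton, and SOX9 is a transcription factor of neural crest and cartilage that activates genes of cartilage collagens.

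CNCCs at passage 4 came from the established human stem cell line H9, and newly made RNA was measured before and after rapid loss of SOX9 protein. In all groups, controls included, both SOX9 alleles carried a C-terminal tag of FKBP12-F36V, mNeonGreen and V5, through which the small molecule dTAGV-1 directs the protein to degradation. The 0h group had no dTAGV-1, and the 3h and 24h groups had 500 nM dTAGV-1 for those times, with a relative SOX9 level of 100% at 0h and 0% afterwards in the labels. Each group held the same 3 cultures, S9CC13_R6, S9CC47_R5 and S9CC47_R6, named after 2 clones of the tagged line (S9CC13 and S9CC47) and 2 differentiation batches (R5 and R6), so that batch R5 and clone S9CC13 are each represented by 1 culture. In SLAM-seq, cells take up 4-thiouridine, here at 100 uM for 2 h, and RNA made in that time is read as T>C conversions. For the 3h and 24h groups, labelling started 1 h and 22 h after addition of dTAGV-1.

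Libraries held 16955633 to 28782678 total reads and 3130673 to 5475800 T>C reads, those with such a conversion. SOX9 transcripts were higher at 3h (log2 fold change 0.77 ± 0.081 in T>C reads) and at 24h (1.15 ± 0.084), so the transcript does not serve as a check of protein loss. All 14 cranial neural crest markers tested passed the low-count filter, and their summed level in CPM (reads scaled to a common library size) was 3740 to 3840 at 0h, 4180 to 4240 at 3h and 4880 to 5300 at 24h. Of these 14 markers, 8 were called higher and 0 lower at 24h in T>C reads, where 4.98% of all genes were called. At 3h 3 were higher and 0 lower in T>C reads (1.79% of all genes called), and 4 were higher and 2 lower in total reads (1.89%). Summed levels of other cell types were 9.74 to 18.2 CPM for neural cells, 2.8 to 7.3 for melanocytes and Schwann cells, 1.37 to 4.42 for epithelium and at most 0.656 for endothelium over all libraries, with the melanocyte gene TYR at 0 throughout. Markers of differentiated cartilage summed to 30.8 to 40.2 CPM at 0h and to 20.9 to 24.3 CPM at 24h, and pluripotency markers to 350 to 414 and 281 to 306 CPM. Of the 5 cartilage markers only COL9A1 passed the low-count filter. It was called lower at 24h (-0.71 ± 0.11 in total reads, where 7.85% of all genes were called lower). Only 2 of the 6 pluripotency markers passed the low-count filter, LIN28A among them, and POU5F1 and TDGF1 had 0 reads at 0h and at 24h. The part of these marker shifts in the results below was not tested, and in bulk libraries fewer cells of a type and less RNA per cell cannot be told apart.

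The promoters of the 4 genes whose total reads changed at 24h are shown first. Each is that of the start RefSeq lists first for the gene. It runs from 250 bases before to 50 after the transcript start, as RefSeq gives it on GRCh38.p14. Capitals mark ACGTG on either strand (CACGT on the other), the core that hypoxia-inducible factors bind. This core was searched because PLOD2, LOX and P4HA1 are textbook hypoxia-induced genes. A palindromic CACGTG would count on both strands. The windows are PLOD3 at chr7:101217532-101217831 on the minus strand, SERPINH1 at chr11:75562003-75562302 on the plus strand, LOX at chr5:122078210-122078509 on the minus strand and PLOD2 at chr3:146161135-146161434 on the minus strand.
PLOD3: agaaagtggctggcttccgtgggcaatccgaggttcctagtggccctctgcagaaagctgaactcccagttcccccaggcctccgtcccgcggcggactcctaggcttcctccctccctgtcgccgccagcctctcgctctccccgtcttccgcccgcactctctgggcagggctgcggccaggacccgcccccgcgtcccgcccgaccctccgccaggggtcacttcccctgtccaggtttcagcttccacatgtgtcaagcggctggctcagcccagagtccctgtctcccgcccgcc
SERPINH1: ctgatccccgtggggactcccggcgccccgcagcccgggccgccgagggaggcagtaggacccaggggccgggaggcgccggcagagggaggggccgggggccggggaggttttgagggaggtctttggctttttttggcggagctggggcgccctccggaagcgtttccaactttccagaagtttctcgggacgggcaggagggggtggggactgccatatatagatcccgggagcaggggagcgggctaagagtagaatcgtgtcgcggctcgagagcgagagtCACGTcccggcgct
LOX: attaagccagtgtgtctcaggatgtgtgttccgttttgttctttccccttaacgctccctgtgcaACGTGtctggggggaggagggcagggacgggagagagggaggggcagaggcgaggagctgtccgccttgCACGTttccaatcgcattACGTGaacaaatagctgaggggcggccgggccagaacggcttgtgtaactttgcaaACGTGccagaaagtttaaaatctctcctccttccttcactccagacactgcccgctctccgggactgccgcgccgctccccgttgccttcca
PLOD2: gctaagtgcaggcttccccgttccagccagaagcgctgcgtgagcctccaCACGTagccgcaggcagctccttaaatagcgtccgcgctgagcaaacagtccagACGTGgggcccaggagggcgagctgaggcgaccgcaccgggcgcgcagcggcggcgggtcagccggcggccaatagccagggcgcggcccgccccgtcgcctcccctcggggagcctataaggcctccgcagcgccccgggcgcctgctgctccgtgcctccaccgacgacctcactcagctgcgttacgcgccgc

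The 3 genes among these whose total reads rose at 24h held the core, with 1 match in SERPINH1, 4 in LOX and 2 in PLOD2, and the gene whose reads fell, PLOD3, held none in this window. The core was searched because of LOX and PLOD2, so its presence in them is no test. A relation of the core to the direction of change was not tested. RefSeq lists further starts for LOX and SERPINH1: both further LOX windows held 1 match each, and the further SERPINH1 window held 1. Windows on chromosome 8 were not used, which leaves out LOXL2, so the search covered 9 of the 10 genes. The core was in 4 of these 9 (the fourth was P4HA1, with 1 match). It was in 23.8% of 14609 promoters of the same length outside chromosome 8, called all promoters below. Among the 9 windows of the starts listed first, that of SERPINH1 alone held a heat shock element, searched on both strands as 3 alternating units of GAA and TTC spaced 2 bases apart, which 0.363% of all promoters held, and the window of its further start held none. SERPINH1 is a textbook heat shock gene. The SOX core ACAAT, on either strand, was in 0 of the 9 windows and in 20.6% of all promoters. A match is a run of letters and not a measured binding site, and its absence says only that these letters are not in this window.

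At 3h, newly made RNA of the 10 genes did not pass the test in either direction. In T>C reads 0 of 10 were called, against a background of 1.79% of 12037 genes tested, and in total reads 0 of 10, against 1.89% of 11710. Calls are at an adjusted p under 0.1 in DESeq2, and edgeR also called 0 in both. At an unadjusted p under 0.05, 2 of the 10 passed in T>C reads (P4HA1 and LOXL2, both higher), against 7.33% of all genes, and 1 in total reads (PLOD3, lower), against 8.22%. The median log2 fold change of the 10 was 0.10 in T>C reads and -0.02 in total reads, beside -0.01 for all genes tested in each.

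At 24h, PLOD3 was called lower in newly made RNA and 4 of the 10 genes were called in total RNA. In T>C reads 1 of 10 was called, against 4.98% of all genes tested (2.59% lower). In total reads PLOD3 was lower and SERPINH1, LOX and PLOD2 were higher, against 15.0% of all genes called, 7.85% lower and 7.11% higher. Members moved in both directions, and their median log2 fold change was 0.23 in T>C reads and -0.15 in total reads, with single genes between -0.94 and 1.74 and between -0.82 and 1.41. All 10 passed the filter of 1 CPM in 3 samples. LOX lay near that level, which 1 of its 3 samples reached at 0h, 2 of 3 at 3h and 3 of 3 at 24h. The other members reached it in all samples.

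**Figure D1:**
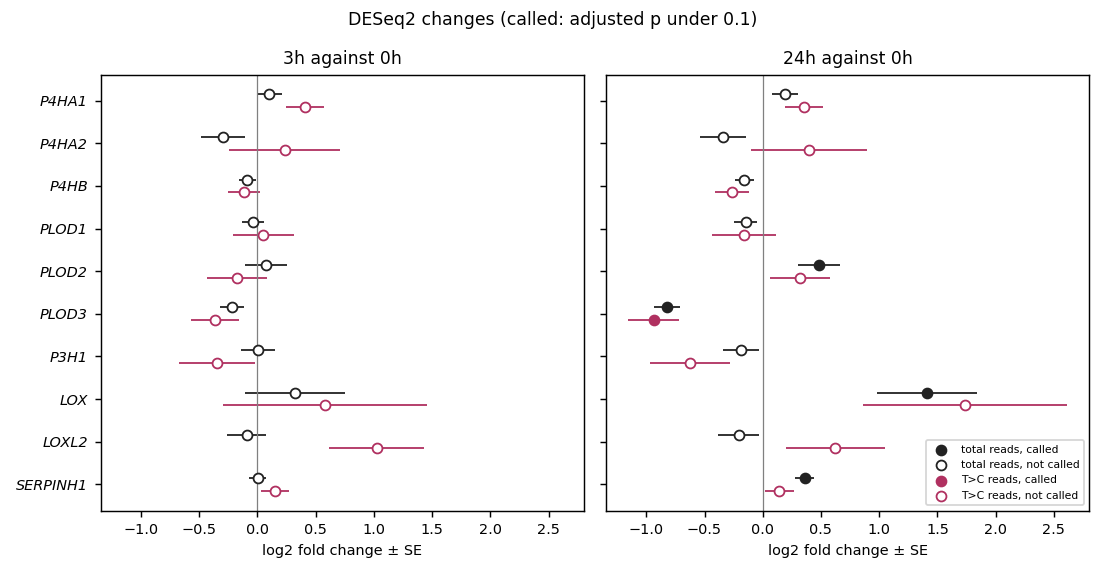
Log2 fold changes of the 10 genes against 0h at 3h (left) and 24h (right) from DESeq2, for total reads (black) and T>C reads (red), with bars of 1 SE. Filled points passed an adjusted p under 0.1: none at 3h, and at 24h PLOD3 in both kinds of read and PLOD2, LOX and SERPINH1 in total reads.

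The fit over all 9 samples used time, batch and 1 surrogate variable, and p-values measure the spread over these 3 cultures of 2 clones. Leaving out 1 culture left 6 samples and 1 residual degree of freedom beside the surrogate variable (or 2 without S9CC47_R5, where no batch term remained). Values from such fits, with the surrogate variable kept, stand beside each call they ended. Where the same fit without the surrogate variable kept the call, this is stated. Batch R5 held 1 sample per time and gave no test of its own, and the fit without S9CC47_R5 is the fit within batch R6.

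The lysyl hydroxylases moved apart from each other. PLOD3 (chr7:101205977-101218420, minus strand of hg38, 3′ reads falling near its last exon, 101205984 to 101206436), the family member that also transfers sugars to hydroxylysine, had 1329.5, 1506 and 1568 normalized total reads at 0h in S9CC13_R6, S9CC47_R5 and S9CC47_R6. It had 1265, 1372 and 1177 at 3h. It had 905, 768 and 786 at 24h. All 3 cultures were lowest at 24h, and no 24h value reached the lowest value at either earlier time. The log2 fold change was -0.82 ± 0.11 (SE) at 24h (adjusted p = 5.8e-11) and -0.22 ± 0.11 at 3h (adjusted p = 0.567). Without S9CC47_R6 the 24h value was -0.88 with an adjusted p of 0.136, and without the surrogate variable the call was kept there.

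The same fall was seen in newly made RNA. Normalized T>C reads of PLOD3 were 165, 180.2 and 235 at 0h. They were 152, 159 and 144 at 3h. At 24h they were 91.0, 113 and 99.3, below every value of both earlier groups. The log2 fold change at 24h was -0.94 ± 0.22 (adjusted p = 0.00136), and the call was lost without S9CC13_R6 (-0.74, adjusted p = 1.0) and without S9CC47_R6 (-0.77, adjusted p = 1.0). Without the surrogate variable, the first of these fits kept the call (-0.97, adjusted p = 0.0948) and the second did not (-0.76, adjusted p = 0.415). At 3h the estimate was -0.36 ± 0.21 (adjusted p = 0.783), and its interval of -0.77 to 0.04 does not show that PLOD3 was unchanged at that time.

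PLOD3 also fell between 3h and 24h. In that contrast total reads changed by -0.60 ± 0.12 (adjusted p = 8.28e-05), and of the 10 genes 2 were called, against 5.39% of all genes (2.88% lower and 2.51% higher). The PLOD3 call was lost without S9CC13_R6 (-0.63, adjusted p = 0.274) and without S9CC47_R5 (-0.46, adjusted p = 0.283). Both of these fits kept it without the surrogate variable. For its T>C reads the change from 3h to 24h was -0.57 ± 0.24 (adjusted p = 0.41), where 0 of 10 were called against 1.14% of all genes. At an unadjusted p under 0.05, 1 of 10 passed there (PLOD3), against 8.14%. Of the members not called in total reads between 3h and 24h, PLOD2 stood at 0.41 ± 0.19 (adjusted p = 0.294) and LOX at 1.08 ± 0.45 (adjusted p = 0.195), and both were called with the culture as a replicate block (0.62, adjusted p = 0.0496, and 1.17, adjusted p = 0.0671). P4HA1, P4HA2, P4HB, PLOD1, P3H1 and LOXL2 changed by -0.19 to 0.09 there and were not called.

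PLOD2 (chr3:146035139-146163725, minus strand), the lysyl hydroxylase of the collagen telopeptides, where crosslinks form, moved the other way. Its normalized total reads were 226, 275 and 187 at 0h. They were 183, 198 and 317 at 3h, with S9CC47_R6 apart from the other cultures. They were 345, 347 and 368 at 24h, above every earlier value. The rise at 24h was 0.48 ± 0.18 on the log2 scale (adjusted p = 0.0672). This call had the highest adjusted p of the 4. With the surrogate variable kept, it was lost when any 1 culture was left out: 0.02 without S9CC13_R6 (adjusted p = 1.0), 0.50 without S9CC47_R5 (adjusted p = 0.394) and 0.36 without S9CC47_R6 (adjusted p = 1.0). Without the surrogate variable these were 0.63 (adjusted p = 0.423), 0.79 (adjusted p = 0.0839, called) and 0.47 (adjusted p = 0.471). Newly made PLOD2 RNA had T>C reads of 69.8, 84.6 and 71.6 at 0h and of 88.2, 113 and 114 at 24h. These did not overlap, but the change of 0.32 ± 0.26 was not called (adjusted p = 0.683).

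PLOD1, which hydroxylates lysines within the helix, was not called in any contrast. At 0h, 3h and 24h its total reads were 1064 ± 13.6, 1052 ± 84.0 and 936 ± 54.8 (SD, n = 3), a log2 change of -0.14 ± 0.099 at 24h (adjusted p = 0.393). The 24h values, 879 to 988, lay below the lowest 0h value of 1048. Of all total reads of the 3 lysyl hydroxylases, the share of PLOD2 was 8.30% ± 1.51 at 0h and 16.8% ± 1.36 at 24h, while that of PLOD3 was 53.1% ± 2.7 and 38.8% ± 1.55. Among T>C reads the share of PLOD2 was 20.4% ± 4.21 at 0h and 34.5% ± 3.72 at 24h, and that of PLOD3 was 51.2% ± 4.54 and 33.3% ± 3.98. These shares restate the same reads and were not tested. They count 3′ end reads, which were not divided by transcript length.

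**Figure D2:**
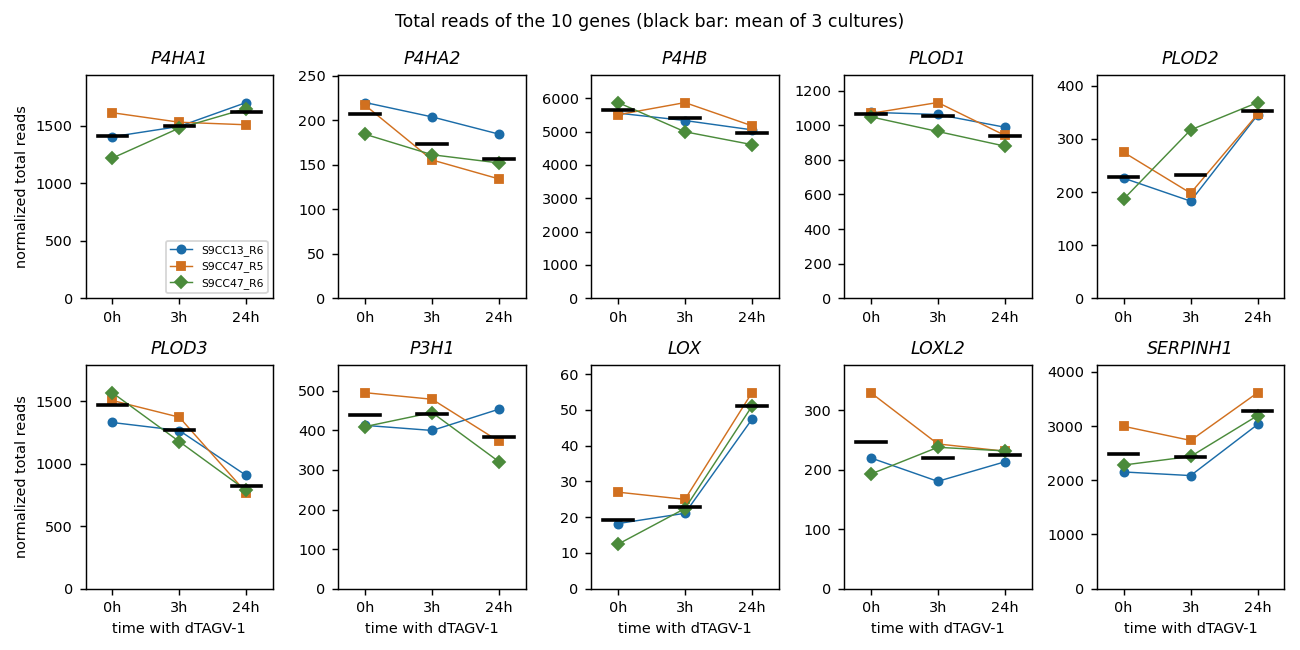
Normalized total reads (y axis, from 0, a separate scale for each gene) of the 10 genes at 0h, 3h and 24h, with a point and line for each of the 3 cultures and a black bar at the mean. PLOD3 falls to 768 to 905 reads at 24h, and PLOD2, LOX and SERPINH1 stand above all their 0h values there.

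SERPINH1 (chr11:75562056-75572783, plus strand) rose in total RNA between 3h and 24h. Its normalized total reads were 2152, 2995 and 2280 at 0h. They were 2085, 2734 and 2438 at 3h. They were 3029, 3615 and 3193 at 24h. S9CC47_R5 was highest at every time, and its 0h value lay just below the lowest 24h value. The log2 fold change at 24h was 0.36 ± 0.079 (adjusted p = 0.000199), and from 3h to 24h 0.36 ± 0.084 (adjusted p = 0.00174). The first was lost without S9CC13_R6 (0.22, adjusted p = 1.0) and without S9CC47_R6 (0.30, adjusted p = 1.0). The other was lost when any 1 culture was left out, at 0.26 (adjusted p = 1.0), 0.35 (adjusted p = 0.265) and 0.47 (adjusted p = 0.17) without S9CC13_R6, S9CC47_R5 and S9CC47_R6. Those fits kept the surrogate variable. Without it, both calls were lost only when S9CC13_R6 was left out (0.38, adjusted p = 0.265, and 0.39, adjusted p = 0.359).

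Newly made SERPINH1 RNA was not called. Normalized T>C reads were 469, 596 and 556 at 0h. They were 549.9, 642 and 691 at 24h. Each of the 3 cultures was higher at 24h than at 0h, by 0.23, 0.11 and 0.31 on the log2 scale, while the groups overlapped. The fitted change of 0.14 ± 0.13 (adjusted p = 0.724) had an interval of -0.10 to 0.39, which holds the 0.36 of total reads. Reads without a conversion (unconverted reads), which hold RNA made before labelling and new RNA in which no label was read, rose by 0.42 ± 0.085 at 24h (adjusted p = 3.76e-05) and by 0.48 ± 0.090 from 3h to 24h (adjusted p = 1.88e-05). Without S9CC13_R6 these were 0.30 (adjusted p = 1.0) and 0.37 (adjusted p = 0.519). The direct test of T>C against unconverted reads gave -0.27 ± 0.15 at 24h (adjusted p = 0.999, interval -0.56 to 0.02), so the difference between both kinds of read was not called.

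LOX (chr5:122063195-122078413, minus strand), the founding lysyl oxidase, was the scarcest of the 10 and had the largest estimated rise. It had 18, 21 and 16 raw total reads at 0h in S9CC13_R6, S9CC47_R5 and S9CC47_R6. It had 19, 30 and 19 at 3h. It had 49, 49 and 62 at 24h. After normalization these were 12.4 to 27.0, 21.1 to 24.9 and 47.3 to 54.8 reads, so the 24h group stood apart from both others. The log2 fold change at 24h was 1.41 ± 0.43 (adjusted p = 0.0155). With the surrogate variable kept, it was 0.81 without S9CC13_R6 (adjusted p = 1.0), 1.66 without S9CC47_R5 (adjusted p = 0.215) and 1.03 without S9CC47_R6 (adjusted p = 1.0), none of them called. Without the surrogate variable these were 1.51 (adjusted p = 0.343), 1.70 (adjusted p = 0.0453, called) and 1.20 (adjusted p = 0.489).

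T>C reads of LOX were too few to settle its newly made RNA. They numbered 3, 3 and 7 at 0h, 6, 7 and 3 at 3h and 12, 8 and 31 at 24h. The 24h estimate of 1.74 ± 0.88 was not called (adjusted p = 0.357, interval 0.02 to 3.46), and 31 of the reads behind it came from S9CC47_R6. The last exon of LOX overlaps SRFBP1, a gene on the opposite strand. Those of PLOD2 and P4HB each overlap a gene of a long non-coding RNA on the opposite strand. Whether counting used strand was not stated.

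LOXL2 on chromosome 8, a lysyl oxidase that acts on basement membrane collagen, was called only at 3h, and only in the test of newly made against older RNA. Its normalized T>C reads were 17.7, 26.6 and 17.5 at 0h. They were 41.0, 42.4 and 40.8 at 3h. They were 35.1, 31.2 and 27.4 at 24h. All 3 cultures were higher at 3h than at 0h, with no overlap between these groups. The log2 fold change of 1.03 ± 0.41 at 3h had an unadjusted p of 0.012 and was not called over all genes (adjusted p = 0.366), and at 24h it was 0.62 ± 0.43 (adjusted p = 0.596).

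Total reads of LOXL2 did not follow. At 0h, 3h and 24h they were 248 ± 72.6, 221 ± 34.9 and 226 ± 10.5, with log2 changes of -0.09 ± 0.17 and -0.21 ± 0.18 (adjusted p = 0.982 and 0.501). In the test of T>C against unconverted reads within libraries, LOXL2 was the member called at 3h, with a relative rise of 1.36 ± 0.36 (adjusted p = 0.0533), 1 of 10 against 0.343% of 11361 genes (0.273% higher). The call lay near the threshold: it was lost without each culture (1.19, 1.40 and 1.52 without S9CC13_R6, S9CC47_R5 and S9CC47_R6, adjusted p = 1.0, 1.0 and 0.433), with size factors of total reads (1.19, adjusted p = 0.223) and without the library as a block (1.37, adjusted p = 0.107). At 24h it was 0.78 ± 0.36 (adjusted p = 0.999), and 0 of 10 were called against 0.0176% of all genes, with LOXL2 and P3H1 passing an unadjusted p under 0.05, against 4.51% of all genes. edgeR was not run on this ratio.

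**Figure D3:**
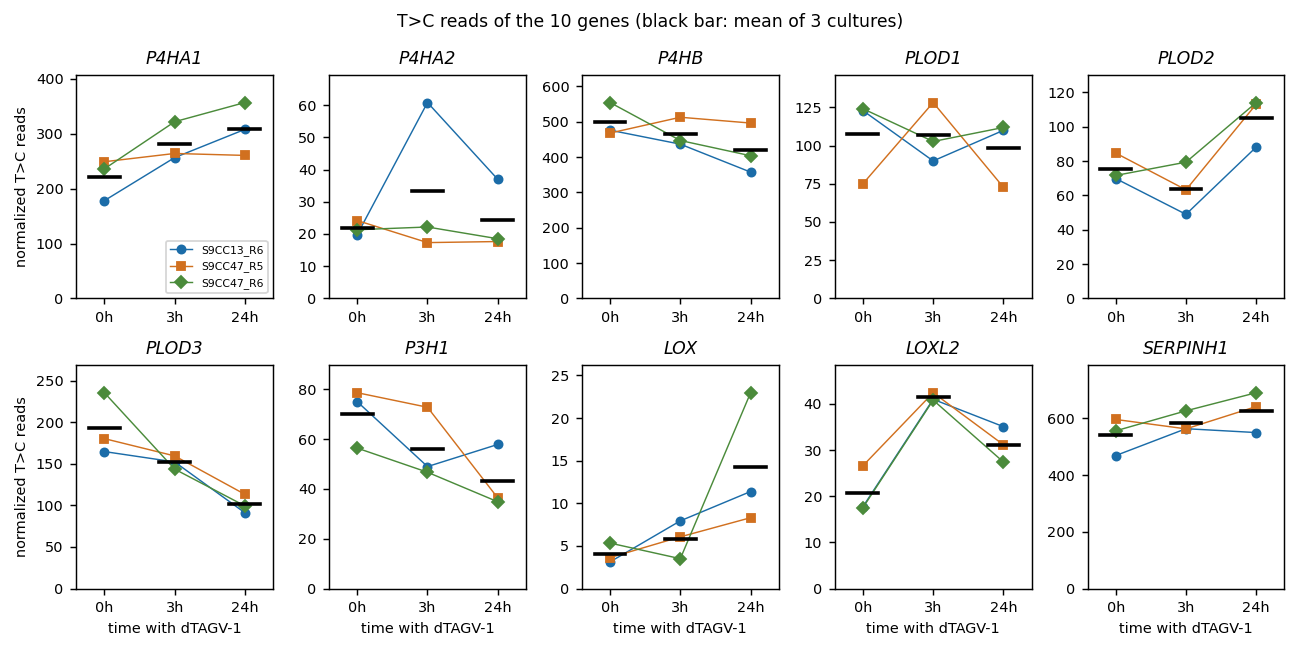
Normalized T>C reads (y axis, from 0, a separate scale for each gene) of the 10 genes at 0h, 3h and 24h, with a point and line for each culture and a black bar at the mean. PLOD3 is lowest at 24h in each culture, LOXL2 stands at 40.8 to 42.4 at 3h against 17.5 to 26.6 at 0h, and the high LOX mean at 24h follows S9CC47_R6.

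Prolyl 4-hydroxylase is a tetramer of alpha and beta subunits, and none of its 3 genes was called at either time. P4HA1 (chr10:73007217-73096974, minus strand), the widespread catalytic alpha subunit, had T>C reads of 178, 249 and 236 at 0h. It had 257, 264 and 322 at 3h and 308, 261 and 357 at 24h. All 3h and 24h values lay above the highest value at 0h. The log2 changes of 0.41 ± 0.16 at 3h and 0.35 ± 0.17 at 24h had adjusted p-values of 0.338 and 0.302. With the culture as a block the 24h value was 0.49 and was called (adjusted p = 0.0879). Total reads of P4HA1 were 1414 ± 198 at 0h and 1622 ± 100.1 at 24h, with overlapping groups (0.19 ± 0.11, adjusted p = 0.293).

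P4HA2, another catalytic alpha subunit, had lower total reads at each later time in every culture. At 0h, 3h and 24h they were 207 ± 19.8, 174 ± 26.4 and 157 ± 25.5, and the change of -0.34 ± 0.20 at 24h was not called (adjusted p = 0.292). Its T>C reads rested on few counts and on 1 library: S9CC13_R6 had 60.9 normalized reads at 3h, while the other two cultures had 17.3 and 22.2. P4HA2-AS1, an antisense RNA, lies over its last exon. P4HB, the beta subunit, which is protein disulfide isomerase and serves many other proteins, had the most reads of the 10. At 0h, 3h and 24h its total reads were 5643 ± 199, 5398 ± 442 and 4945 ± 297. The 24h values of 4609 to 5174 lay below the 0h values of 5505 to 5871, but the change of -0.16 ± 0.080 was not called (adjusted p = 0.203). Its T>C reads changed by -0.27 ± 0.15 (adjusted p = 0.429).

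P3H1 (chr1:42746335-42767084, minus strand), which hydroxylates a single proline of fibrillar collagen chains in a complex with cyclophilin B and CRTAP, was not called. Its T>C reads were 75.02, 78.6 and 56.4 at 0h and 57.8, 36.3 and 34.8 at 24h, with 48.95, 72.8 and 46.7 at 3h. Each culture was lower at 24h than at 0h, while the groups overlapped through S9CC13_R6. The log2 change at 24h was -0.62 ± 0.35 (adjusted p = 0.437), and that of total reads -0.19 ± 0.16 (adjusted p = 0.503). Relative to unconverted reads, T>C reads changed by -0.61 ± 0.28 at 24h (unadjusted p = 0.0278, adjusted p = 0.999).

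Unconverted reads of the 10 genes, which are part of the total reads and no separate measure, behaved much as total reads did. At 3h 0 of 10 were called, against 1.10% of 11529 genes, and 0 in edgeR. At an unadjusted p under 0.05, 1 of 10 passed, against 7.50% of all genes. It was P4HA2, lower in all 3 cultures (-0.41 ± 0.19, adjusted p = 0.573). At 24h 3 of 10 were called, against 12.1% of all genes (6.27% lower and 5.84% higher): PLOD3 lower (-0.80 ± 0.12, adjusted p = 3.88e-09), SERPINH1 higher and LOX higher (1.31 ± 0.51, adjusted p = 0.0908). PLOD3 was called in all 11 alternative fits of this comparison. PLOD2 stood at 0.55 ± 0.22 with an adjusted p of 0.104, and it was called with the culture as a replicate block (0.70, adjusted p = 0.0613), in edgeR (0.57, adjusted p = 0.0653), without the surrogate variable (0.70, adjusted p = 0.0801) and without the low-count filter (0.61, adjusted p = 0.0842). P4HA2 stood at -0.46 ± 0.20, lower in all 3 cultures with no overlap between the groups, and was not called (adjusted p = 0.152). P4HA1, P4HB, PLOD1, P3H1 and LOXL2 were not called either, with log2 changes from -0.31 to 0.16. LOX was not called without the low-count filter (1.32, adjusted p = 0.111) or without S9CC13_R6 (0.78, adjusted p = 1.0), S9CC47_R5 (1.53, adjusted p = 0.478) or S9CC47_R6 (1.13, adjusted p = 0.942). From 3h to 24h 2 of 10 were called, against 4.59% of all genes (2.25% lower and 2.34% higher). The other 8 were not called, with log2 changes from -0.15 to 1.05. Those called were SERPINH1 and PLOD3 (-0.58 ± 0.13, adjusted p = 0.000647), and PLOD3 was lost without S9CC47_R5 (-0.40, adjusted p = 0.586). For PLOD3, T>C and unconverted reads fell by like amounts at 24h, with a relative change of -0.13 ± 0.19 and an interval of -0.49 to 0.23.

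The share of a gene's reads that carried a T>C conversion differed between members. At 0h it was highest for PLOD2 (33.9% ± 4.66), followed by LOX (24.9% ± 16.4) and SERPINH1 (22.4% ± 2.13). It was 16.1% ± 3.71 for P4HA1 and 16.1% ± 1.90 for P3H1, and 13.3% ± 1.72 for PLOD3. It was lowest for P4HA2 (10.8% ± 1.78), PLOD1 (10.2% ± 2.43), P4HB (8.98% ± 0.651) and LOXL2 (8.53% ± 0.720). LOX overlapped most of the others, and so did the last 4 among themselves, whose replicate ranges ran from 7.45% to 12.1%. The median over 11361 genes at 0h, 3h and 24h was 27.0%, 24.9% and 28.3%. Of the 10 members 9 lay below that median at 0h, all but PLOD2. The share also depends on how many T bases the sequenced stretch holds, so it is compared here between times more than between genes. For LOXL2 it was 7.80%, 8.56% and 9.24% at 0h, 19.0%, 16.7% and 17.3% at 3h and 16.7%, 14.5% and 13.1% at 24h, with every later value above every 0h value. For P3H1 the mean was 11.8% ± 2.41 at 3h and 11.85% ± 1.25 at 24h, below the 16.1% at 0h.

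**Figure D4:**
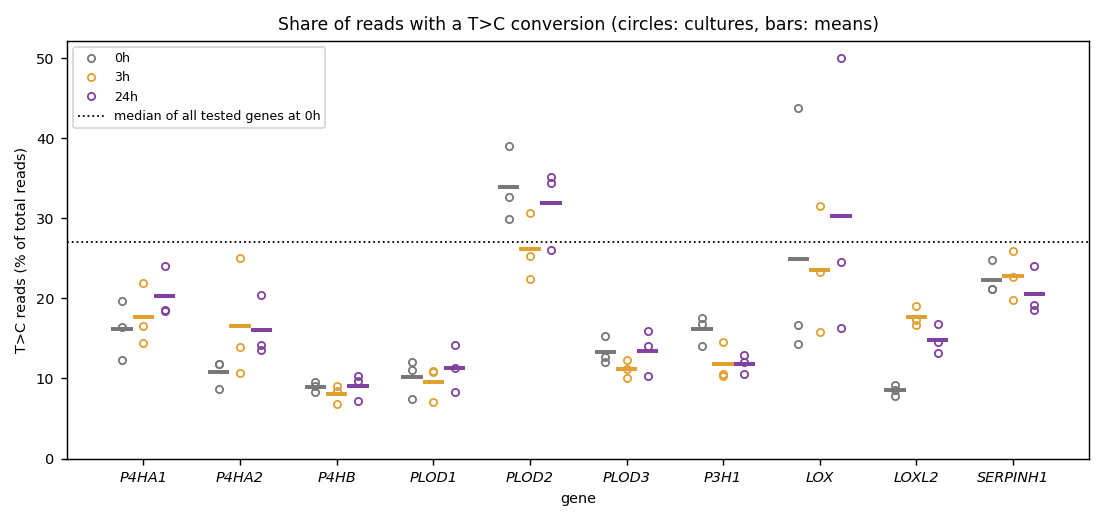
Reads with a T>C conversion as a percent of total reads for each of the 10 genes (x axis) at 0h, 3h and 24h. Circles are cultures, bars are means of 3, and the dotted line is the median of all tested genes at 0h (27.0%). LOXL2 moves from 7.80 to 9.24% at 0h to 16.7 to 19.0% at 3h, and only PLOD2 lies above the line at 0h in all 3 cultures.

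Among 27 other genes of collagen biosynthesis, none was called in newly made RNA, and 5 were called lower in total RNA at 24h. Of T>C reads, 24 genes were tested and 0 were called at 3h, at 24h or between these times, against 1.79%, 4.98% and 1.14% of all genes. Of 23 tested in total reads, 0 were called at 3h, against 1.89% of all genes. At 24h 5 were lower and 0 higher, against 7.85% lower and 7.11% higher of all genes. The list median was 0.05 there, beside 0.00 for all genes. These 5 were named after their values were seen. They were LOXL1, a lysyl oxidase of elastic fibres (-0.59 ± 0.13, adjusted p = 0.000204), and BMP1, the procollagen C-proteinase (-0.54 ± 0.15, adjusted p = 0.00413). PCOLCE2, an enhancer of that proteinase, changed by -1.07 ± 0.31 (adjusted p = 0.00886). COLGALT1, which adds galactose to hydroxylysine, changed by -0.30 ± 0.093 (adjusted p = 0.0199), and P3H4, a partner of the hydroxylases in the endoplasmic reticulum, by -0.32 ± 0.10 (adjusted p = 0.0207). In T>C reads at 24h, where none was called, PCOLCE2 changed by -1.26 ± 0.53, LOXL1 by -0.50 ± 0.26 and P3H4 by -0.29 ± 0.165. BMP1 changed by -0.10 ± 0.43 and COLGALT1 by -0.05 ± 0.14 there. These standard errors were larger than those in total reads, so a missing call does not show that newly made RNA was unchanged. In total reads, BMP1, COLGALT1 and LOXL1 were also called lower between 3h and 24h, against 2.88% of all genes. Within the lysyl oxidase family, LOX made up 1.66% ± 0.535 of total reads at 0h and 5.47% ± 0.71 at 24h.

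The collagen chains on which these enzymes act held calls in both directions at 24h. Of 11 fibrillar chain genes 10 were tested, and 0 were called at 3h. At 24h 2 were lower and 2 were higher in T>C reads, against 4.98% of all genes called, and the counts were the same in total reads, against 7.85% lower and 7.11% higher. COL2A1, the main cartilage collagen chain, and COL11A1 were lower (-0.90 ± 0.090 and -0.40 ± 0.083 in total reads), and COL1A2 and COL1A1, the chains of type I collagen, were higher (0.51 ± 0.079 and 0.34 ± 0.13), all named after their values were seen. Because 3 members are textbook hypoxia targets, 15 other such targets were counted too. There 14 were tested in T>C reads, with 0 called at 3h and 1 lower and 0 higher at 24h, against 4.98% of all genes called. In total reads 12 were tested, with 0 called at 3h and 1 lower and 2 higher at 24h, against 15.0%.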

How the data were processed

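Raw counts of all reads and of T>C reads, by gene symbol, were deposited by the authors for the same 9 samples. Per the authors' methods, 3′ end reads were trimmed with skewer and mapped and counted with slamdunk; hg38 stands in the submitters' processing notes, and strand use and molecular identifiers were not given in the sources used here. Intervals therefore cover the spread between samples, and depth was 16955633 to 28782678 total reads. All 9 value columns of each table were used.

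Groups came from the sample titles. Each measure was fitted with DESeq2 1.42.0 in R 4.3.3 over protein-coding genes (GENCODE 44, matched by symbol) with at least 1 CPM in 3 samples, with time, batch and 1 surrogate variable (sva 3.50.0). Independent filtering was off, and calls had a Benjamini-Hochberg adjusted p under 0.1 over all genes tested. Unconverted reads are total minus T>C reads. The ratio test is the interaction of read kind with time, with the library as a block and size factors within each kind. Log2 fold changes are given with SE and 95% intervals. Normalized reads are counts divided by size factors. Replicate libraries differed beyond counting noise (chi-square per degree of freedom 12.6 to 47.8). Scripts were tested on simulated data.

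The culture pairs samples across times, as clone and batch in the titles show; deviations from group means correlated by 0.131 on average in T>C reads (0.0169 to 0.286 over 9 pairs) and by 0.273 in total reads (-0.0566 to 0.606). Alternatives were edgeR 4.0.16, TMM, no surrogate variable, the culture as a block, no low-count filter, total-read size factors and each culture left out; leaving out a culture without the surrogate variable was added after seeing the data. The members and lists were chosen with earlier results of these data known. The naming rule covered all 10 members; those not called in a comparison are in part given there as a range. Other genes are given by count, except where the text says otherwise.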

Additional observations from a re-analysis of the deposited data

Results flagged for a closer look

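For 2 of the 10 genes the change after 24h differed from the change after 3h by a direct test of 24h against 3h. Over all genes 5.39% were called in that test in total reads and 4.59% in unconverted reads. Both contrasts share the 0h samples. PLOD3 fell further by 24h, with an effect at 24h minus that at 3h of -0.60 on the log2 scale in total reads and -0.58 in unconverted reads. SERPINH1 was called higher at 24h and not at 3h, with a difference of 0.36 in total reads and 0.48 in unconverted reads. For both genes and both kinds of read, the call was lost in some fits that left out 1 culture, as given above. Unconverted reads are part of the total reads, so these are not separate results. In T>C reads neither gene was called between 3h and 24h, where 1.14% of all genes were called. PLOD3 stood at -0.57 ± 0.24 (adjusted p = 0.41) and SERPINH1 at -0.01 ± 0.135 (adjusted p = 0.997) there. Each group held 3 samples, too few to test a single sample for standing apart.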

How the results depend on the processing

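No called value changed its sign under any alternative run. For single genes 1087 values kept their side of the threshold, 41 lost a call and 12 gained one, while 105 values that were not called on either side changed sign. At 3h, T>C, total and unconverted reads gave 0 called members in every alternative. Leaving out 1 culture at a time, with or without the surrogate variable, gave 0 to 1 called members in T>C reads at 24h against 0h, 0 to 5 in total reads and 1 to 3 in unconverted reads. Between 24h and 3h it gave 0 to 3 in total reads and 1 to 3 in unconverted reads, and for the T>C to unconverted ratio at 3h it gave 0. These fits have fewer samples by construction, and over all genes their calls fell too, in total reads at 24h from 1751 to 64 without S9CC47_R6. With the culture as a replicate block, called members were 2 in T>C reads at 24h against 0h (P4HA1 added). Over all genes, calls in that comparison also rose with the block, above the 599 of the main fit. In total reads at 24h against 3h, called members were 4 with the block (LOX and PLOD2 added, adjusted p = 0.0671 and 0.0496). For the ratio at 3h, called members were 0 with size factors of total reads and 0 with no replicate block. The cause was not tested. The block moved no other count of called members by over 1.5 times. Depth limits LOX most, with 3 to 31 T>C reads per library.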

Other observations

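Differences between the cultures were of the size of some changes over time, and since each rests on 1 culture per side they are given as values. In total reads, clone S9CC13 had more P4HA2 than clone S9CC47 within batch R6 at each time, by 0.29 on the log2 scale on average (0.255 to 0.336 over the 3 times). SERPINH1 was higher in batch R5 than in batch R6 of clone S9CC47 at each time, by 0.25 on average (0.165 to 0.394). In T>C reads, P4HA1 was lower in clone S9CC13 than in S9CC47 at each time, by -0.32 on average (-0.405 to -0.212). Its total reads were higher in S9CC13 at each time, by 0.09 on average (0.0136 to 0.205). The P4HA2, SERPINH1 and T>C P4HA1 differences lay at percentiles 70.6 to 78.4 of absolute differences over all genes tested. Larger ones were seen for LOX in total reads between the batches (0.45) and for P3H1 in T>C reads between the clones (0.40).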
